A study of Mus musculus with 24 samples.

Results

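Mitochondrial ribosomal protein genes were followed over 4 maternal diets in newborn mouse liver and hindleg skeletal muscle. Members were all genes on the arrays whose single symbol starts with Mrpl or Mrps followed by a number, with at most 1 further letter, and each gene was represented in each tissue by its probe set of highest mean over the 12 arrays of that tissue. Of 18193 genes with a probe set of a single symbol, 76 met this rule, 47 named for the large subunit (Mrpl) and 29 for the small subunit (Mrps), and 72 of the 76 used the same probe set in both tissues. The 24 biotin-labelled Affymetrix arrays carried total RNA of day 0 C57BL/6 pups, and the 2 tissues had been normalized separately. Pups of the low protein group (LP) were born to dams fed 8% casein, LP+tau dams were also given 1% taurine in their drinking water, NP+tau dams received 20% casein and the same taurine, and normal protein (NP) dams were fed 20% casein alone. Each diet ran from day 1 of pregnancy until birth, and each of the 8 groups of tissue and diet held 3 arrays that the labels call biological replicates. Which pups shared a dam is not stated in the labels, so each p-value is read against the spread of 3 arrays per group and no further.

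Mitochondria carry their own ribosomes, which translate the few messages of the mitochondrial genome into core subunits of the respiratory chain and the ATP synthase. The ribosomal RNAs come from mitochondrial DNA, whereas every protein of the particle is encoded in the nucleus, made in the cytosol and imported. Part of these proteins descend from bacterial ribosomal proteins and the others are found only in mitochondria. Names do not always give the place in the particle: Mrps30 and Mrps18a are built into the large subunit, and Mrps36 is now known as a component of the α-ketoglutarate dehydrogenase complex of the citric acid cycle. The members were nevertheless grouped by name, as the rule sets.

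The DNA at the start of the members' transcripts is shown as a description, and whether it bears on their values was not tested. RefSeq promoter windows (GRCm38.p6, 250 bases before to 50 bases after the transcript start) were given for 67 of the 76 members. Each was searched on both strands for the letters TGCGCA, the core of the sites of the transcription factor NRF1, CCGGAAG, a core bound by ETS factors such as GABP, and AAGATGG, found in YY1 sites. TGCGCA was present in 21 of the 67 windows (31.3%), against 12.8% of the windows of 14369 genes on the arrays. CCGGAAG stood in 25 windows (37.3%), against 15.03%, and AAGATGG in 13 windows (19.4%), against 7.55%. TGCGCA or CCGGAAG, or both, occurred in 38 windows (56.7%), against 25.2%, while TATAAA was found in 5 (7.46%), against 11.5%. Median GC content was 58.0% in the members and 58.7% in the genes on the arrays. A match is a string of letters and says nothing of binding in these tissues. Written in lower case on the strand of the gene, 5′ to 3′, with matches in capitals, the first 2 windows below belong to genes whose diet difference differed between the tissues and that held a match, the next is the 1 member whose LP liver values all lay below its NP values, and the last holds the full NRF1 palindrome. That palindrome was found in 3 members (4.48%) and in 1.75% of the genes on the arrays, and it can overlap TGCGCA. Of the other genes called in a comparison below, Mrpl12, Mrpl20, Mrpl55 and Mrps36 held none of these strings in their windows. For Mrps35, also called below, no window was given.
Mrps7: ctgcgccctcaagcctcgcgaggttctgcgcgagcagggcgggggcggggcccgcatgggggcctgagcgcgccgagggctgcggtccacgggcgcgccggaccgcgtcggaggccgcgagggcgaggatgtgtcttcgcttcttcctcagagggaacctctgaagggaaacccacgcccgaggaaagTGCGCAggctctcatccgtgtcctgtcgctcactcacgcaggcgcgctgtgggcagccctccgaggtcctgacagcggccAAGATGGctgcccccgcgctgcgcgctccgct
Mrpl42: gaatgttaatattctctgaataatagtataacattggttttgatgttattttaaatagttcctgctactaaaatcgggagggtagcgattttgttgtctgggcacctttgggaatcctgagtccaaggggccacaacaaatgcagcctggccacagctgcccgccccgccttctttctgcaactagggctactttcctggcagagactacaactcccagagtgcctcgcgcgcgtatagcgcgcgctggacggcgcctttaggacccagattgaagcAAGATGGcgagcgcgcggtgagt
Mrps18a: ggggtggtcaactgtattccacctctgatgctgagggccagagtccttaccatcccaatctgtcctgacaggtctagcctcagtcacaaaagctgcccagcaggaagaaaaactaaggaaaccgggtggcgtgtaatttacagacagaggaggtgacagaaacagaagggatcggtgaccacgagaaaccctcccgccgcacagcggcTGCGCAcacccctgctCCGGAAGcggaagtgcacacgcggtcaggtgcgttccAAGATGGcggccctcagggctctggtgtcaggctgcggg
Mrpl32: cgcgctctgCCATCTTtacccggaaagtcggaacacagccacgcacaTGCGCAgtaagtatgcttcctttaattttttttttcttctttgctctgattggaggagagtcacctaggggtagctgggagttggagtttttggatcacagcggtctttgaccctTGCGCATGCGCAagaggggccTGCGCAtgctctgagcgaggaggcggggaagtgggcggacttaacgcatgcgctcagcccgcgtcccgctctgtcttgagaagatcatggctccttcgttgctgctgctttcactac
The Mrps7 window, at chr11:115603890-115604189 on the plus strand, held TGCGCA and AAGATGG. Mrpl42, at chr10:95501900-95502199 on the minus strand, held AAGATGG just inside the transcript. The Mrps18a window, chosen for holding all 3 strings, was at chr17:46110754-46111053 on the plus strand. At Mrpl32, on chr13:14612988-14613287 of the minus strand, the palindrome stood among 4 copies of TGCGCA and 1 of AAGATGG.

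Tissue identity was plain on the arrays. The 6 measured liver markers, among them albumin and transthyretin, averaged 14.3 to 14.9 on the deposited log2 scale in liver and 4.43 to 7.48 in muscle. The 8 muscle markers, among them creatine kinase and skeletal α-actin, averaged 7.57 to 14.8 in muscle and 4.10 to 6.94 in liver. One array stood apart before any comparison: muscle LP+tau replicate 1 had an interquartile range of relative log expression of 0.53, against 0.14 to 0.28 on the other 11 muscle arrays and 0.17 to 0.30 in liver. By Xist against Y-linked genes the arrays came from 12 females and 12 males, with the same sex in all 12 pairs of liver and muscle that shared diet and replicate number. Member means over the 12 arrays ran from 5.68 to 10.8 in liver and from 6.67 to 11.1 in muscle, and none was removed by a filter on low values.

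Averaged over the 76 members, each array was set against the mean of the NP arrays of its tissue. In liver the 3 LP arrays lay at 0.31, 0.14 and 0.11 log2 units, the LP+tau arrays at 0.12 each, the NP+tau arrays at 0.11, 0.21 and -0.06, and the NP arrays at -0.12, 0.15 and -0.03. The LP livers therefore overlapped the NP livers, since the second NP array lay above 2 of the 3 LP arrays. In muscle the LP arrays lay at -0.62, -0.12 and -0.38, the LP+tau arrays at -0.02, -0.01 and 0.01, the NP+tau arrays at 0.04, -0.30 and -0.03, and the NP arrays at -0.09, -0.02 and 0.11. All 3 LP muscles were below all 3 NP muscles and all 3 LP+tau muscles, though LP replicate 2 was close to the lowest NP array. Large and small subunit names ran side by side. Large-subunit members averaged 0.20 ± 0.12 in LP livers and -0.37 ± 0.24 in LP muscles, and small-subunit members 0.16 ± 0.08 in LP livers and -0.38 ± 0.27 in LP muscles (SD, n = 3 each), relative to the NP mean.

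**Figure D1:**
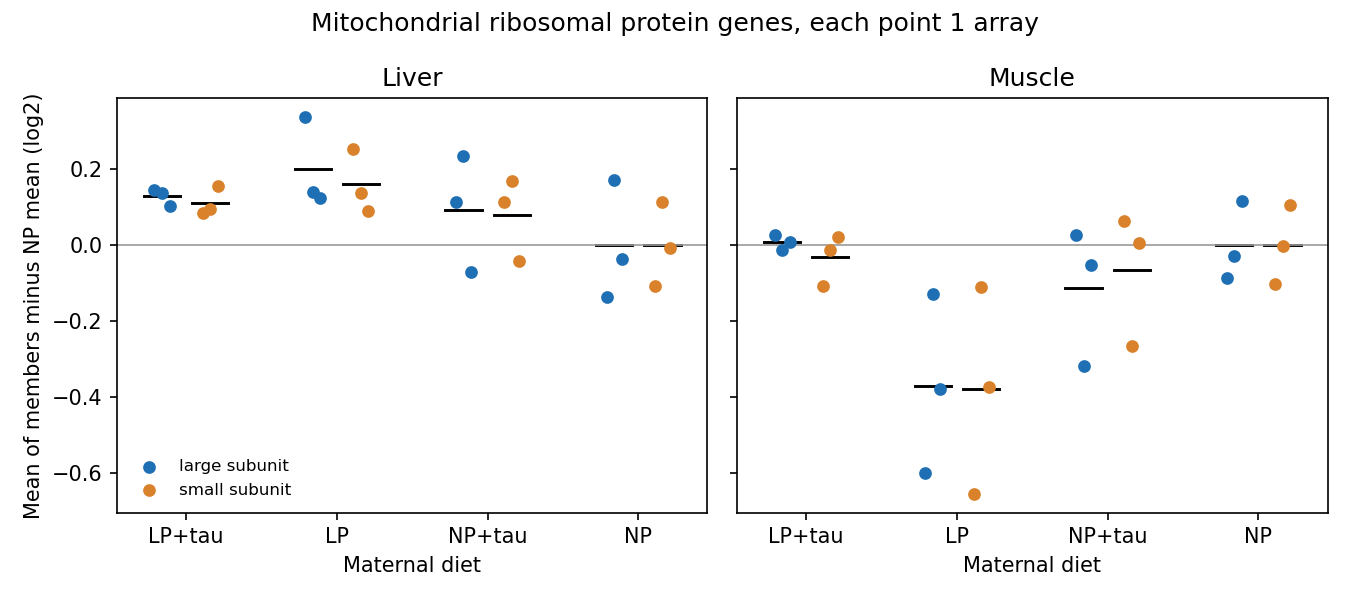
Mean of the large-subunit (47 genes) and small-subunit (29 genes) members on each array, minus the NP mean of the tissue, on the log2 scale. Points are arrays and bars are means of 3 arrays. LP muscle arrays sit between -0.66 and -0.11, and all liver LP arrays are above 0.

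In LP livers most members had higher values than in NP livers. The LP minus NP difference was above 0 for 60 of 76 members, against 58.5% of all genes, with a median of 0.19 on the log2 scale against 0.05 over all genes. Without LP replicate 1 this median was 0.12. By limma's moderated test with Benjamini-Hochberg adjustment over all 18193 genes, 2 members rose (Mrps35 and Mrpl20), none fell and 74 did not pass an adjusted p of 0.05. Over all genes 1.11% rose and 1.23% fell in this comparison. The 3 LP values lay above the 3 NP values for 21 members and below them for 1, against 18.3% and 10.9% of all genes. For large-subunit names the median was 0.21, with 38 of 47 above 0. For small-subunit names it was 0.15, with 22 of 29 above 0.

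Mrps35, a small-subunit protein of mitochondria without a bacterial relative, had values of 9.08, 9.08 and 8.98 in LP livers, against 8.05, 8.39 and 8.45 in NP livers. These groups were well apart, and the difference was 0.75 (SE 0.12, limma adjusted p = 0.0175). Mrpl20, whose bacterial counterpart L20 binds ribosomal RNA early in assembly of the large subunit, stood at 9.73, 9.66 and 9.65 in LP livers, against 8.96, 9.28 and 8.99 in NP livers. Its groups were also apart, and it rose by 0.60 (SE 0.12, limma adjusted p = 0.0338). Mrpl12, of the flexible stalk that recruits translation factors and, in mammals, also a partner of the mitochondrial RNA polymerase, had 10.11, 10.52 and 10.39 in LP livers, against 9.71, 9.92 and 9.67 in NP livers. Its difference of 0.57 (SE 0.13) missed the threshold by little (limma adjusted p = 0.0502). The 7 other largest liver differences were 0.74 for Mrpl50, 0.61 for Mrpl34, 0.60 for Mrps27, 0.57 for Mrpl55, 0.54 for Mrpl42, 0.45 for Mrpl22 and 0.44 for Mrps36, with limma adjusted p between 0.0968 and 0.162. All of these but Mrpl22 had 3 LP values above the 3 NP values. Neither call was left without NP replicate 1, LP replicate 2 or LP replicate 3, where the limma adjusted p of Mrps35 was 0.0599, 0.0828 and 0.062. Mrpl20 also missed the threshold without NP replicate 3 (limma adjusted p = 0.117) or LP+tau replicate 2 (limma adjusted p = 0.0522), with sex in the fit (limma adjusted p = 0.0513) and with only the LP and NP arrays fitted (limma adjusted p = 0.059). Of the LP livers 2 came from females and 1 from a male, and of the NP livers 1 came from a female and 2 from males.

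The members with the lowest liver differences were Mrpl1 at -0.38, Mrps18a at -0.34, Mrpl54 at -0.23, Mrps6 at -0.21, Mrpl14 at -0.18 and Mrps15 at -0.16, none of which passed the test. Mrps18a alone had its 3 LP values, 7.81, 7.66 and 7.75, below its 3 NP values of 8.07, 8.26 and 7.91 (limma adjusted p = 0.127). Mrps12, which lies at the decoding centre and takes part in checking codon against anticodon, had 9.23, 9.32 and 9.02 in LP livers, against 8.94, 9.06 and 9.14 in NP livers, a difference of 0.15 (limma adjusted p = 0.479). The other large-subunit protein with an Mrps name, Mrps30, differed by 0.02.

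In LP muscles nearly all members had lower values than in NP muscles, although no single member passed the test. The difference was below 0 for 74 of 76 members, against 52.4% of all genes, and the median was -0.37, against -0.01 over all genes. All 29 small-subunit names were below 0, with a median of -0.38, as were 45 of 47 large-subunit names, with a median of -0.34. No member rose or fell at a limma adjusted p of 0.05, where 0.022% of all genes rose and 0.104% fell, while 32 members had an unadjusted p under 0.05, all lower in LP, against 6.22% of all genes. For 35 members the 3 LP values lay below the 3 NP values, against 11.6% of all genes, and for none above. The 2 members above 0 were Mrpl20 at 0.15 and Mrpl52 at 0.10, with overlapping values.

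Mrpl42, a large-subunit protein without a bacterial counterpart, had 9.96, 10.67 and 10.25 in LP muscles, against 11.24, 11.32 and 11.60 in NP muscles. The groups did not overlap, and the difference was -1.09 (SE 0.20, limma adjusted p = 0.0684). A further probe set of Mrpl42 differed by 0.05, but its mean in muscle was only 3.46. Mrps36 had 7.88, 8.39 and 8.36 in LP muscles, against 8.98, 9.11 and 9.53 in NP muscles. This difference of -0.998 (SE 0.21, limma adjusted p = 0.0930) also left the groups apart. Mrpl37, a large-subunit protein without a bacterial counterpart, showed 7.36, 8.30 and 7.96 in LP muscles, against 8.54, 8.78 and 8.79 in NP muscles, a difference of -0.83 (limma adjusted p = 0.151). Mrps22, of the small subunit and likewise without a bacterial counterpart, stood at 7.84, 8.36 and 8.02 in LP muscles, against 8.77, 8.74 and 8.96 in NP muscles, a difference of -0.75 (limma adjusted p = 0.106). In both the LP groups lay wholly below the NP groups.

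Mrpl38, of the central protuberance of the large subunit, differed by -0.74 and Mrps15, of bacterial ancestry, by -0.72, with no overlap of the groups. Mrps12 had 8.52, 8.65 and 8.06 in LP muscles, against 8.81, 8.79 and 9.07 in NP muscles, a difference of -0.48 (limma adjusted p = 0.273). The smallest shifts below 0 were those of Mrps18c at -0.01, Mrps18b at -0.02, Mrps6 at -0.02, Mrpl33 at -0.03, Mrps17 at -0.05, Mrpl1 at -0.05, Mrpl4 at -0.08 and Mrps26 at -0.10. Mrps18b and Mrps18c are the small-subunit relatives of Mrps18a, which differed by -0.52, with 7.99, 8.65 and 8.19 in LP muscles against 8.76, 8.85 and 8.77 in NP muscles. The LP values of Mrps18a thus lay below the NP values in both tissues. LP replicate 1 weighed most in these muscle values: without it the median of the members was -0.23, with 64 of 76 below 0, and without LP replicate 2 it was -0.49, with 2 members called lower. The LP+tau array that stood apart also bore on the test through the shared spread, since 2 members were called lower without it. Both LP muscle replicates 1 and 3 came from females and replicate 2 from a male, and with sex in the fit the median was -0.32, with 69 of 76 below 0.

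The liver and muscle differences were then compared directly, gene by gene, in 1 fit of all 24 arrays that tests the liver LP minus NP difference against the muscle one, using the probe set of highest mean over both tissues. Liver minus muscle was above 0 for 73 of 76 members, against 55.6% of all genes, with a median of 0.54 against 0.05 over all genes. Called at an adjusted p of 0.05 were 6 members, all higher in liver, where 1.24% of all genes were, namely Mrpl42, Mrps36, Mrps7, Mrps35, Mrpl55 and Mrpl12. Taken tissue by tissue, 58 members were above 0 in liver and below 0 in muscle, 16 were below 0 in both, 2 were above 0 in both (Mrpl20 and Mrpl52) and none was lower in liver and higher in muscle. The median of this tissue difference was 0.55 for large-subunit and 0.51 for small-subunit names.

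**Figure D2:**
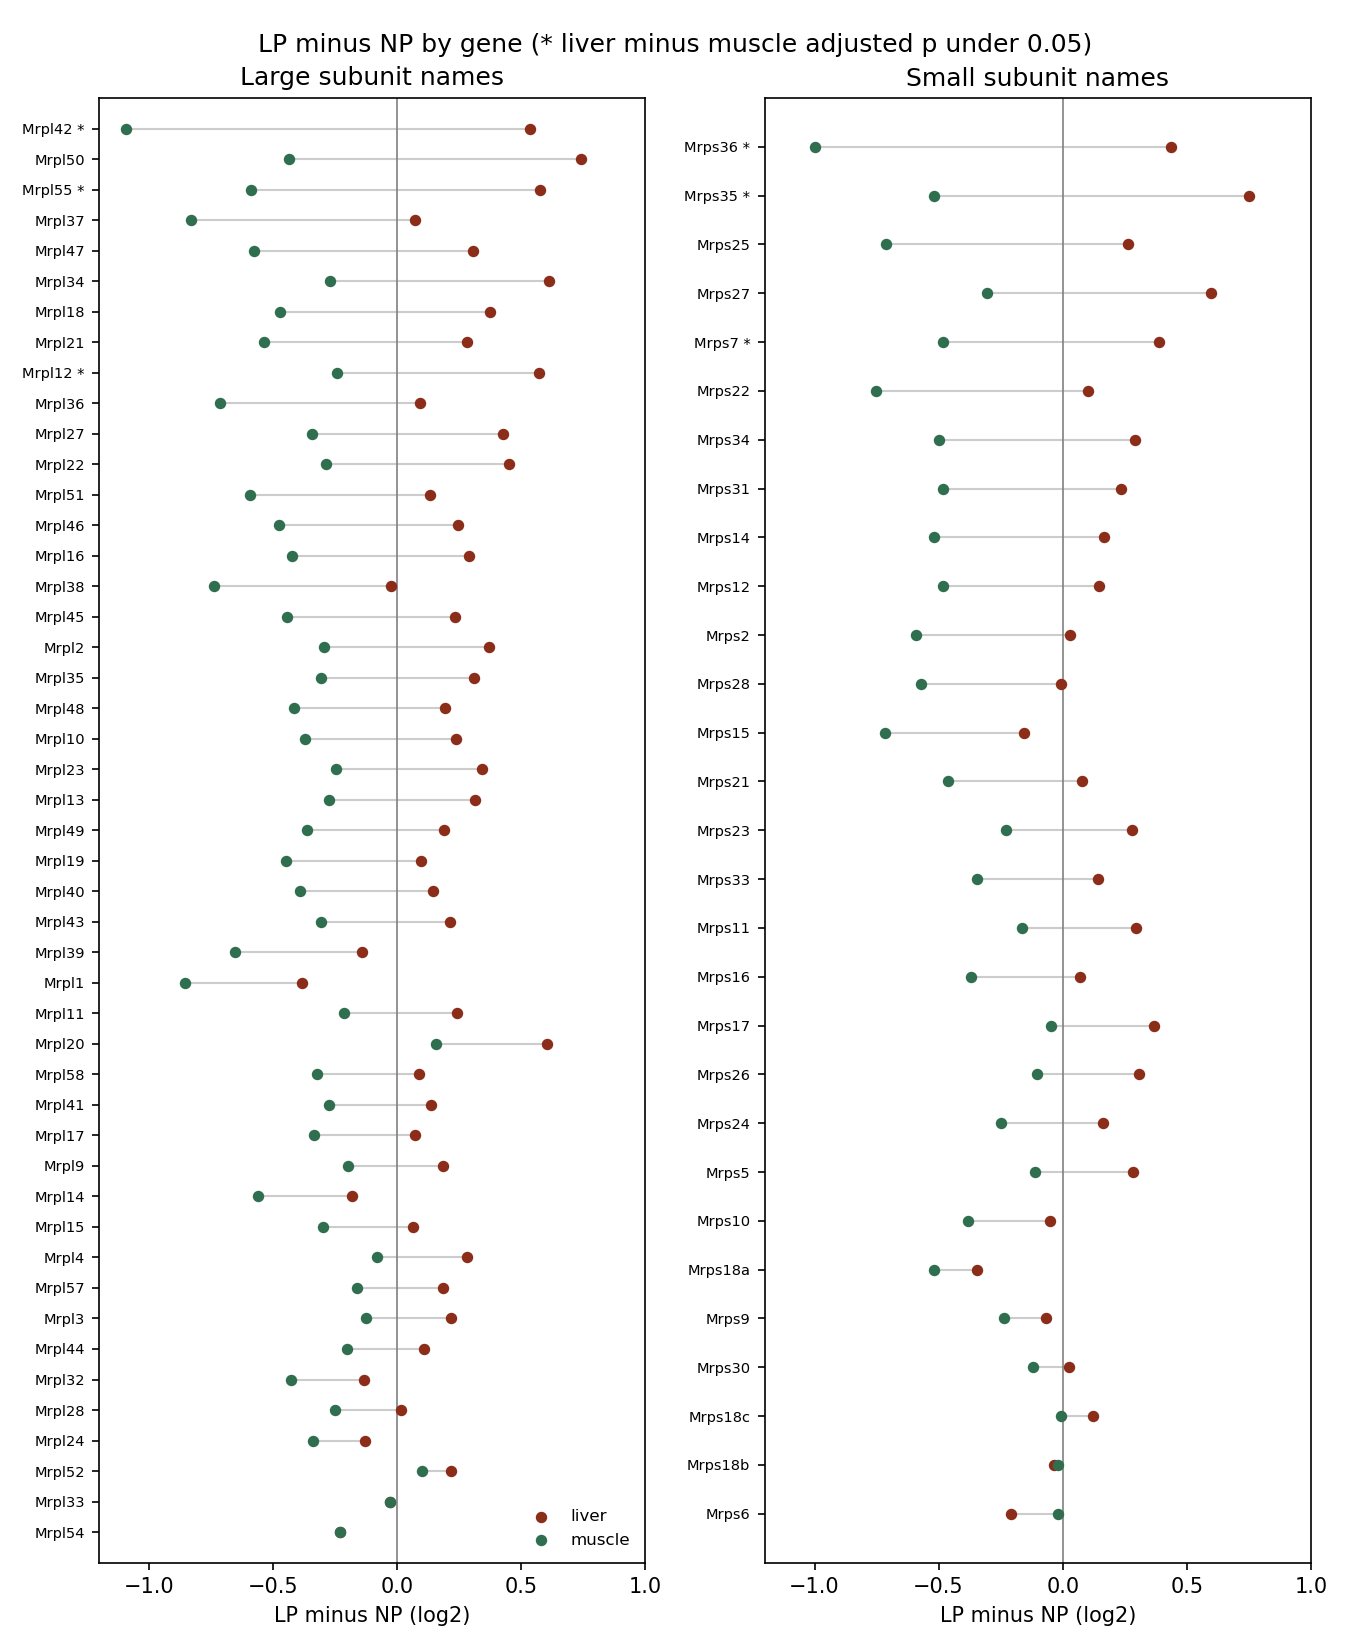
LP minus NP difference on the log2 scale of every member in liver (dark red) and muscle (green), sorted by liver minus muscle, with 47 large-subunit names on the left and 29 small-subunit names on the right. A line joins the 2 tissues of a gene and an asterisk marks the 6 genes with an adjusted p under 0.05 for the difference between tissues. The liver point lies right of the muscle point for 73 genes.

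The largest tissue difference was that of Mrpl42, at 1.63 (SE 0.28, limma adjusted p = 0.0064), with 10.32, 10.02 and 10.20 in LP livers against 9.32, 9.95 and 9.66 in NP livers, the reverse order of the muscle values above. Mrps36 followed at 1.44 (SE 0.26, limma adjusted p = 0.0083), with 9.39, 9.17 and 9.16 in LP livers, against 8.59, 9.04 and 8.79 in NP livers. Both genes thus had LP above NP on all arrays in liver and below it on all arrays in muscle. Mrps7, a protein of the head of the small subunit that contacts ribosomal RNA near the path of the transfer RNAs, had 9.42, 9.46 and 9.44 in LP livers, against 8.81, 9.29 and 9.06 in NP livers. Its muscle values were 8.35, 8.80 and 8.49 with LP, against 9.02, 9.09 and 8.97 with NP. The tissue difference was 0.87 (SE 0.17, limma adjusted p = 0.0136), again with neither tissue's groups overlapping.

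Mrps35 had 8.15, 9.16 and 8.97 in LP muscles, against 9.16, 9.26 and 9.42 in NP muscles, and a tissue difference of 1.27 (SE 0.27, limma adjusted p = 0.0186). Here LP replicate 1 was the lowest of the 12 muscle arrays, while the LP and NP values overlapped. Mrpl55, of the central protuberance on top of the large subunit, had 8.73, 8.41 and 8.40 in LP livers, against 7.70, 8.33 and 7.78 in NP livers. In muscle it had 7.30, 7.86 and 7.54 with LP, against 8.05, 8.16 and 8.25 with NP. The tissue difference was 1.16 (SE 0.27, limma adjusted p = 0.0312). Mrpl12 differed by 0.81 between tissues (SE 0.20, limma adjusted p = 0.0417), and its muscle values, 9.21, 9.80 and 9.41 with LP and 9.76, 9.75 and 9.64 with NP, overlapped. At the other end stood Mrps6 at -0.19, Mrps18b at -0.02, Mrpl54 and Mrpl33 near 0, with a limma adjusted p of 0.846 or more. Mrpl33 averaged only 5.68 in liver, where the array medians ran from 5.35 to 5.39, against 9.20 in muscle. Mrpl42, Mrps36 and Mrps7 kept their calls in all 33 alternative fits and leave-one-out fits, whereas Mrpl12 lost its call in 16, Mrpl55 in 10 and Mrps35 in 3 of them. Mrps35 lost it without liver NP replicate 1, liver LP replicate 2 or muscle NP replicate 3, with a limma adjusted p of 0.068 at most. Mrpl12 and Mrpl55 lost theirs without any 1 of liver NP replicates 1 and 3, liver LP replicates 2 and 3, the 3 muscle NP arrays and muscle LP replicates 1 and 3, with a limma adjusted p up to 0.117 for Mrpl12 and 0.0969 for Mrpl55. Mrpl12 also lost its call without liver LP+tau replicate 1 or 2, muscle NP+tau replicate 1 or muscle LP+tau replicate 2. With the mean of both its probe sets the difference of Mrpl42 was 0.88. In this fit Mrpl1 used a probe set that differed by -0.86 between LP and NP muscles, whereas the one used within muscle differed by -0.05.

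**Figure D3:**
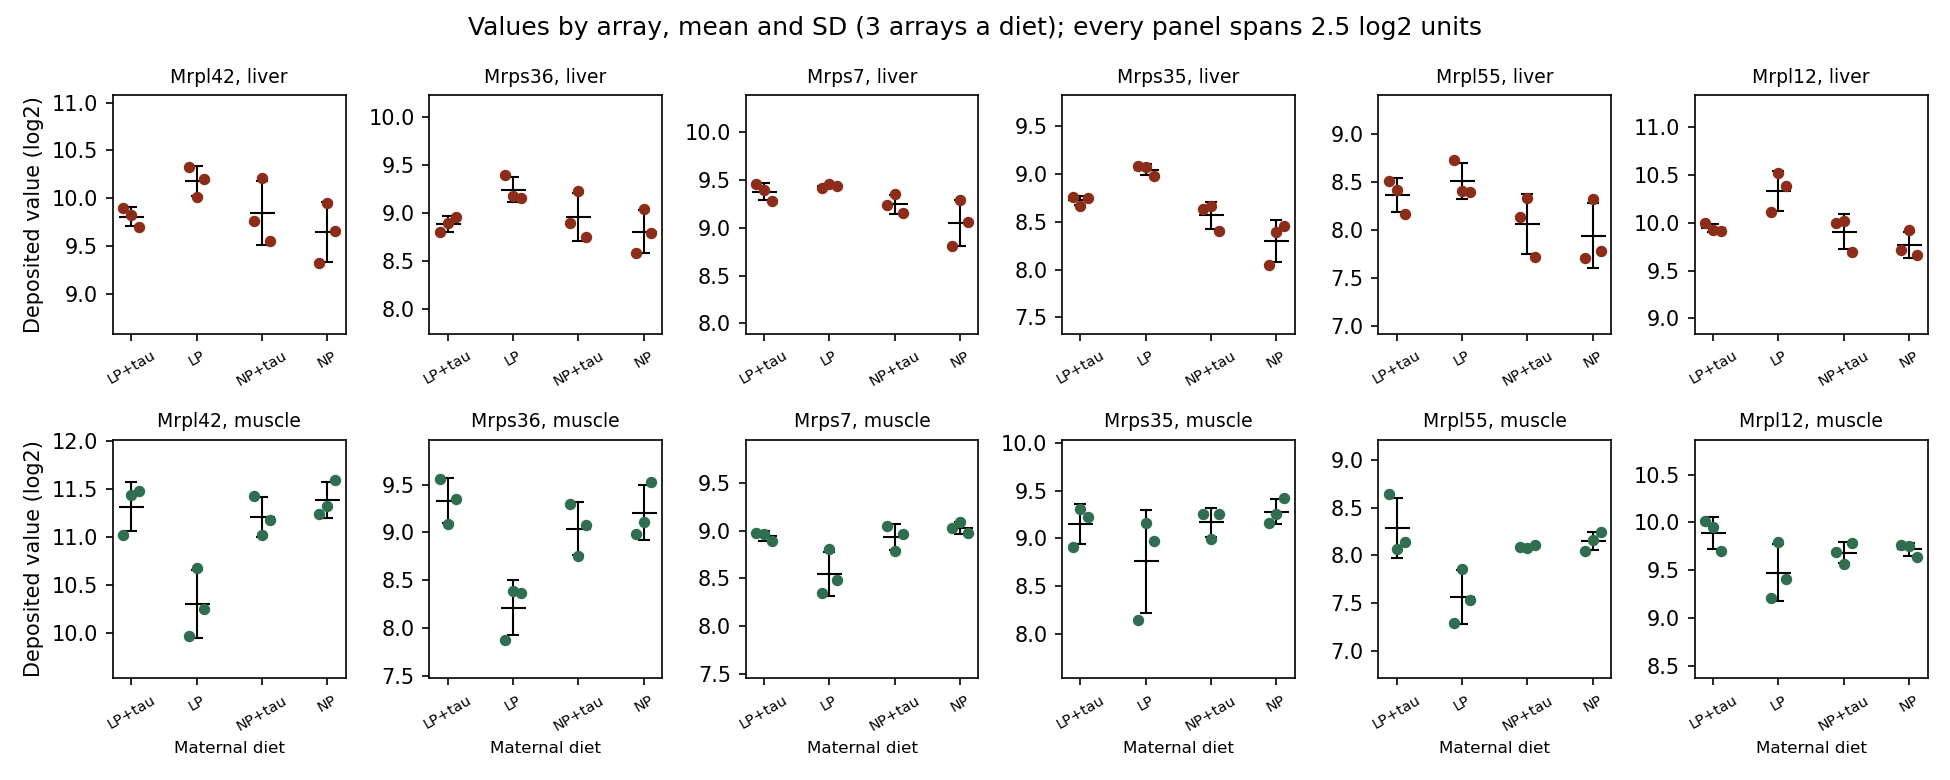
Deposited log2 values by array of the 6 members whose LP minus NP difference differed between tissues, in liver (upper row) and muscle (lower row), with the mean and SD of 3 arrays per diet. Each panel spans the same number of log2 units. For Mrpl42, Mrps36, Mrps7 and Mrpl55 the LP points lie above the NP points in liver and below them in muscle.

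Taurine given with the low protein diet was followed next. The LP+tau against LP comparison shares its LP arrays with LP against NP, so a high or low LP array moves both in opposite directions, and the values are given side by side without relating them. In muscle LP+tau minus LP was above 0 for 74 of 76 members, against 53.0% of all genes, with a median of 0.34 against 0.02 over all genes. None was called, where 0.0165% of all genes rose and 0.0055% fell, and 32 members had an unadjusted p under 0.05, all higher in LP+tau, against 6.05% of all genes. The LP+tau values lay above the LP values for 24 members, against 9.03% of all genes. The medians were 0.33 for large-subunit and 0.35 for small-subunit names.

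Mrps36 had 9.55, 9.09 and 9.35 in LP+tau muscles, with a difference from LP of 1.12 (SE 0.21, limma adjusted p = 0.0952). Mrpl42 had 11.02, 11.44 and 11.49 in LP+tau muscles and differed from LP by 1.02 (SE 0.20, limma adjusted p = 0.115). For both genes the LP+tau arrays were above all LP arrays and overlapped the NP arrays. Mrpl47, near the exit of the tunnel through which the new chain leaves, had 9.48, 8.82 and 8.82 in LP+tau muscles, against 7.90, 8.42 and 8.31 in LP muscles, a difference of 0.83 (limma adjusted p = 0.209). Mrpl14 had 9.49, 8.73 and 8.58 in LP+tau muscles, against 8.47, 8.29 and 7.57 in LP muscles, a difference of 0.82 (limma adjusted p = 0.229). In both of these the highest value was that of LP+tau replicate 1, the array that stood apart. Without that array the median of the members was 0.36, with 74 of 76 above 0. It was 0.21 without LP replicate 1, with 64 above 0, and 0.49 without LP replicate 2, with 75 above 0.

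LP+tau muscles were then set against NP muscles, which were no part of the preceding comparison. LP+tau minus NP had a median of -0.02, with 36 members above 0, against 49.5% of all genes, and no member had an unadjusted p under 0.05 (limma, 0 called, and 3.75% of all genes at an unadjusted p under 0.05). The sign of this median was not settled, since it was 0.09 with cyclic loess, with 57 members above 0, 0.07 with quantile normalization, 0.03 with the mean of all probe sets of a gene and 0.03 without NP replicate 3, and -0.07 without NP replicate 1. The values ran from -0.56 for Mrps25, whose LP+tau replicate 1 stood at 5.774 against 7.004 and 7.043 on the other LP+tau arrays, to 0.50 for Mrpl57, whose same array stood at 11.11 against 9.71 and 9.79. Taurine alone, NP+tau minus NP, had a median of -0.10 in muscle, with 66 members below 0 against 56.9% of all genes, and no member at an unadjusted p under 0.05. Without NP+tau replicate 2 this median was -0.01, with 36 members above 0, and without NP+tau replicate 1, NP replicate 1 or NP replicate 3 it was -0.18, -0.16 and -0.04. The values ran from -0.35 for Mrpl44 to 0.28 for Mrps6. The interaction of protein and taurine shares the LP arrays with LP against NP and LP+tau against LP, and a low LP array raises it. In muscle the interaction had a median of 0.43 and was above 0 for 73 of 76 members, against 53.5% of all genes. None of these was called by limma, where no gene of all 18193 was, and 23 members had an unadjusted p under 0.05, all above 0, against 3.84% of all genes. Mrps36 at 1.29 and Mrpl42 at 1.20 were the largest (limma adjusted p = 0.548 and 0.571).

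The same comparisons were then made in liver. LP+tau minus LP had a median of -0.06, with 45 of 76 members below 0 against 51.6% of all genes and none called by limma (0.066% of all genes called), and 4 members had an unadjusted p under 0.05, all lower in LP+tau, against 3.32% of all genes. Without LP replicate 1 this median was -0.01, with any other array left out it lay between -0.09 and -0.04, and with quantile normalization and cyclic loess it was -0.13 and -0.11. Mrpl50 at -0.40, Mrpl12 at -0.39, Mrpl42 at -0.38 and Mrpl47 at -0.36 were the lowest. Mrps35 stood at 8.76, 8.67 and 8.75 in LP+tau livers and Mrpl20 at 9.49, 9.38 and 9.14, below all LP values and, for Mrps35, above all NP values. NP+tau minus NP had a median of 0.10 in liver, with 64 members above 0 against 58.1% of all genes and 1 at an unadjusted p under 0.05, where 2.75% of all genes were. That median was 0.03 without NP replicate 1, 0.02 without NP+tau replicate 2, 0.18 without NP replicate 2 and 0.16 without NP+tau replicate 3. The values ran from -0.20 for Mrpl9 to 0.32 for Mrpl34. LP+tau minus NP had a median of 0.14, with 60 above 0 against 60.9% of all genes, and a median of 0.06 without NP replicate 1 and 0.21 without NP replicate 2. The liver interaction had a median of -0.12, with 59 members below 0 against 54.1% of all genes, and none was called. Mrpl34 at -0.64 and Mrps35 at -0.59 were the lowest.

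The liver and muscle differences of LP+tau against LP were also set against each other. Liver minus muscle of LP+tau against LP was above 0 for 2 of 76 members, against 50.3% of all genes, with a median of -0.41. Mrps36 at -1.48 (SE 0.26, limma adjusted p = 0.0212) and Mrpl42 at -1.39 (SE 0.28, limma adjusted p = 0.0409) were called, where 0.148% of all genes were called in this direction. Neither was called when liver minus muscle was taken per diet and replicate number, with a limma adjusted p of 0.0742 for Mrps36 and 0.0927 for Mrpl42. Leaving out muscle LP replicate 1, where the median was -0.26, or liver LP replicate 3, or liver LP+tau replicate 3 left none called either. Mrpl42 lost its call in 18 of 33 alternative and leave-one-out fits, with a limma adjusted p of 0.136 at most, and had a difference of -0.83 with the mean of both its probe sets. For NP+tau against NP the same tissue difference was above 0 for 71 members, against 58.4% of all genes, with a median of 0.20, and none was called by limma or had an unadjusted p under 0.05.

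Members were also read by their place in the large subunit. The 4 measured stalk genes, among them Mrpl12, Mrpl10 and Mrpl11, had a median LP minus NP difference of 0.24 in liver and -0.24 in muscle, with 3 above 0 in liver and 4 below 0 in muscle. Mrpl11, which with Mrpl10 anchors the stalk, had 9.03, 9.05 and 9.11 in LP livers, against 8.75, 8.94 and 8.78 in NP livers, a difference of 0.24 that did not pass the test. Mrpl10 had 8.20, 8.46 and 8.24 in LP muscles, against 8.56, 8.71 and 8.74 in NP muscles, a difference of -0.37 that did not pass either. In the tissue given for each gene the groups did not overlap. Over all genes, LP lay wholly above NP for 18.3% in liver and wholly below it for 11.6% in muscle. Mrpl11 overlapped in muscle, with 8.25, 9.05 and 8.81 in LP against 8.83, 9.08 and 8.84 in NP. Mrpl10 overlapped in liver, with 9.21, 8.97 and 9.10 in LP against 8.65, 9.19 and 8.73 in NP. The 8 genes of the central protuberance had medians of 0.22 in liver and -0.44 in muscle, and the 6 genes around the tunnel exit 0.27 in liver and -0.34 in muscle. Mrpl45, which faces the inner membrane at the exit, differed by 0.23 in liver and -0.44 in muscle. Mrpl44, which has a fold related to ribonuclease III and was read from a different probe set in each tissue, differed by 0.11 in liver and -0.42 in muscle. Mrpl3, of bacterial ancestry, differed by 0.22 in liver and -0.13 in muscle, none of these called.

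Members were divided by ancestry as well. The 11 small-subunit names without a bacterial counterpart were all above 0 in LP livers, with a median of 0.28, and the 18 with one had a median of 0.07, with 11 above 0, where 58.5% of all genes were above 0. Large-subunit names had medians of 0.16 for the 18 without a counterpart and 0.28 for the 29 with one, the opposite order. In muscle the medians were -0.48 and -0.38 for small-subunit names without and with a counterpart, and -0.42 and -0.31 for large-subunit names.

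Across the 12 arrays of a tissue, each member's values were set against the mean of the other 75 as a description, with array and normalization shared by all points. The median Pearson r was 0.60 in liver, from -0.30 for Mrps15 to 0.96 for Mrps34, with 14 members above 0.8 and 4 below 0. In muscle it was 0.80, from 0.01 for Mrps6 to 0.95 for Mrps34, with 38 members above 0.8. Mrps34, a small-subunit protein specific to mitochondria, was thus the nearest to the common pattern in both tissues. Mrpl20 and Mrpl52, the 2 members above 0 in LP muscle, had r of 0.18 and 0.17 there. Of the 42 members with more than 1 probe set, all probe sets shared a sign for LP minus NP in 19 in liver and in 26 in muscle.

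The rest of the mitochondrial translation system was read from lists. Of all genes, 58.5% were above 0 in LP livers and 52.4% below 0 in LP muscles. In liver 1.11% of all genes rose and 1.23% fell. Of 13 translation factors measured, 12 were above 0 in LP livers (median 0.27) and 11 below 0 in LP muscles (median -0.33). Gfm1, the elongation factor that moves the ribosome along the message, rose by 0.86 in liver (SE 0.18, limma adjusted p = 0.0366) and differed by -0.12 in muscle. Tufm, the elongation factor that delivers transfer RNAs, differed by 0.18 in liver and -0.50 in muscle, and Lrpprc, which stabilizes mitochondrial messages, by 0.37 and -0.28. Of 16 mitochondrial tRNA synthetases 11 were above 0 in liver, and Iars2 rose by 0.52 (limma adjusted p = 0.0422). Fars2, which charges transfer RNA with phenylalanine, fell by 1.02 (SE 0.12, limma adjusted p = 0.00785). Fars2 also rose by 0.87 in LP+tau livers against LP livers (limma adjusted p = 0.0498), a comparison that shares the LP arrays and in which 0.0495% of all genes rose. Among 19 assembly genes 8 were above 0 in liver, where Mtg1, a GTPase of large-subunit assembly, rose by 0.50 (limma adjusted p = 0.0407), and 15 were below 0 in muscle, none called.

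Genes for transcribing and copying mitochondrial DNA came next. In LP livers 6 of 15 were above 0 (median -0.06), against 58.5% of all genes. In LP muscles 12 of 15 were below 0 (median -0.27), against 52.4% of all genes, with none called in either tissue. Tfam, which packages and transcribes the mitochondrial genome, differed by 0.13 in liver and -0.57 in muscle, the polymerase Polrmt by -0.25 in liver and -0.38 in muscle, and its partner Tfb2m by -0.06 in liver and -0.28 in muscle. Tfb1m, which methylates the ribosomal RNA of the small subunit and was listed with assembly, differed by -0.08 in liver and -0.61 in muscle. Of 9 regulators of mitochondrial biogenesis, 3 were above 0 in each tissue, with medians of -0.35 in liver and -0.10 in muscle. Nrf1 itself differed by 0.12 in liver and 0.21 in muscle and Gabpa, the DNA-binding subunit of GABP, by -0.52 in liver and -0.10 in muscle. Ppargc1a, the coactivator that drives mitochondrial biogenesis, differed by -0.18 in liver and -0.91 in muscle, none of these called. Of the 5 mitoribosomal or associated genes with other names, the small-subunit GTPase Dap3 differed by 0.04 in both tissues and Ptcd3 by 0.36 in liver and -0.36 in muscle. Of the ribosomal proteins of the cytosol, the 46 measured had a median LP minus NP difference of 0.10 in liver and 0.14 in muscle, where 39 were above 0, against 47.6% of all genes, and none was called.

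**Figure D4:**
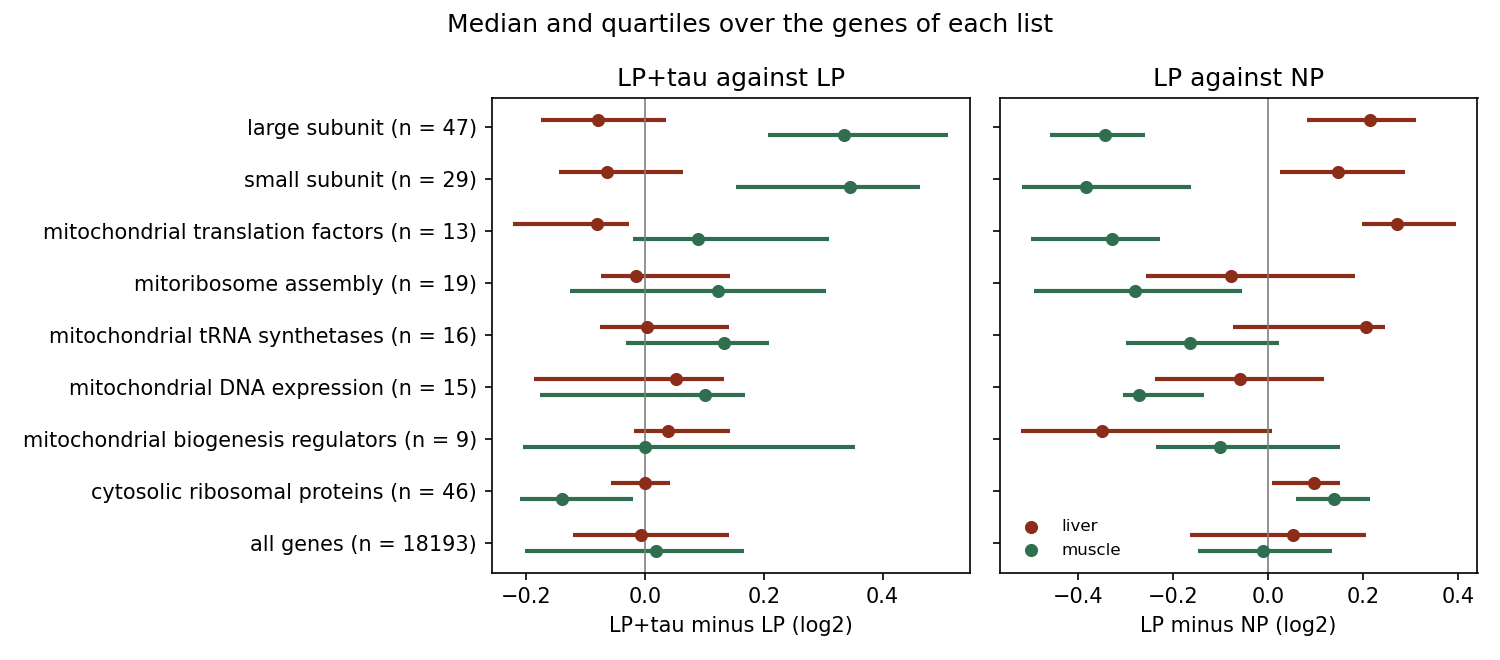
Median (point) and quartiles (line) of the log2 differences over the genes of each list in liver (dark red) and muscle (green), for LP+tau against LP and for LP against NP, with the number of genes. Both subunits lie right of 0 in liver and left of 0 in muscle for LP against NP, while cytosolic ribosomal proteins lie right of 0 in both tissues.

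Markers of tissue and cell type moved with some of these values. The 8 muscle markers were all lower in LP muscles, against 52.4% of all genes, with a median difference of -0.41 and none called. Their mean lay at -0.71, -0.11 and -0.29 on the 3 LP arrays, against -0.03, 0.05 and -0.02 on the NP arrays. Their summed log2 level ran from 99.7 to 104.5 in LP muscles and from 105.1 to 105.8 in NP muscles. The array order within LP was that of the members, with replicate 1 lowest and replicate 2 highest. NP+tau replicate 2 was also low in both, at -0.50 for the markers and -0.30 for the members, whereas LP+tau replicate 1 was low in the markers alone, at -0.38 against -0.02. The 6 liver markers were all above 0 in LP muscles, against 47.6% of all genes, by a median of 0.95 with none called. Their summed level ran from 33.1 to 45.7 in LP muscles, from 35.8 to 39.4 in NP+tau muscles and from 29.6 to 33.8 in NP muscles. Relative to NP these markers averaged 1.01 in LP muscles and 1.05 in NP+tau muscles, while the members averaged -0.37 in LP muscles and -0.10 in NP+tau muscles. The 8 measured fibroblast and fat markers had a median LP minus NP difference of 0.12 in muscle, and their mean lay between -0.35 and 0.14 on the LP arrays and between -1.36 and -0.01 on the LP+tau arrays, against -0.09 to 0.16 on the NP arrays. The 7 measured erythroid markers had a median LP minus NP difference of 0.04 in muscle. In bulk tissue fewer cells of a type and less RNA per cell cannot be told apart, and the part of these shifts in the members' values was not tested.

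**Figure D5:**
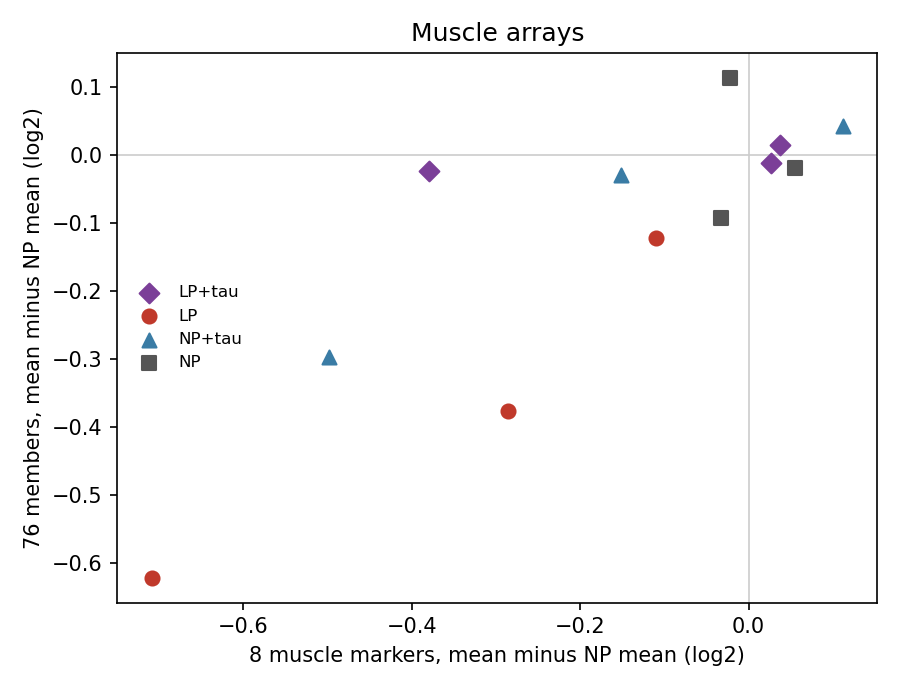
Mean of the 76 members against the mean of 8 muscle markers on each of the 12 muscle arrays, both minus the NP mean, on the log2 scale. LP replicate 1 is at the lower left, at -0.71 for the markers and -0.62 for the members, and LP+tau replicate 1 lies at -0.38 for the markers with the members near 0.

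In liver several marker lists were lower with LP. The newborn liver still makes blood, and 10 of 10 leukocyte markers and 19 of 19 cell cycle genes were below 0 in LP livers, with medians of -0.73 and -0.58 and 2 and 1 genes called lower. Of all genes, 41.5% were below 0 in LP livers and 1.23% were called lower. The mean of the leukocyte markers lay between -1.27 and -0.45 in LP livers, against -0.09 to 0.16 in NP livers, and that of the cell cycle genes between -0.73 and -0.53 in LP livers, against -0.22 to 0.13 in NP livers. Summed log2 levels were 89.7 to 97.9 in LP livers against 101.5 to 103.9 in NP livers for the leukocyte markers, and 173.3 to 177.0 in LP livers against 183.0 to 189.7 in NP livers for the cell cycle genes. Of 8 fibroblast and fat markers, 6 were below 0 in LP livers and 1, Fabp4, was called lower, and the list's mean lay between -0.57 and -0.28 in LP livers, against -0.09 to 0.06 in NP livers. It lay between -0.004 and 0.73 in LP+tau livers. The 7 erythroid markers had a median of -0.24, with overlapping means of -0.61 to 0.03 in LP livers against -0.18 to 0.15 in NP livers. The 6 liver markers were nearly level, between -0.05 and -0.03 in LP livers against -0.04 to 0.02 in NP livers. How much of the liver values of the members goes with these cell types was not tested.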

How the data were processed

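The values were the authors' deposited log2 signals per probe set from 24 Affymetrix arrays (12 per tissue). The submitters' processing notes name RMA, MAS5 and R 2.7.0 without giving their roles, and per the series' design the authors normalized liver and muscle separately, so only differences between diets were compared across tissues. Of 45101 probe sets 34945 had 1 symbol, and each gene took the probe set of highest mean in the tissue (over all 24 arrays for the tissue comparison). All 18193 genes were fitted with limma 3.58.1 (R 4.3.3, lmFit and eBayes) over the 4 diets of a tissue, with no filter and no covariate, and p-values were Benjamini-Hochberg adjusted over all genes, with a call at 0.05. One fit of both tissues gave the liver minus muscle differences. The code was tested on simulated data. The number of arrays limits the precision, since an exact test of 3 against 3 cannot go below p = 0.1. Members and gene lists were chosen with earlier results of these data known, and members were named from those called in any fit, the 10 highest and 6 lowest differences of LP against NP, the 4 highest and 4 lowest elsewhere (not all of these are printed), and a list of members and factors of known role. Mrpl32, Mrps34 and the extremes of r were named after their values were seen. Levels of different probe sets were not ranked against each other. Replicate numbers were not taken to pair samples. Same-numbered arrays of different diets correlated above 0.1 in 6 of 18 pairs in each tissue. Liver and muscle arrays of 1 diet and number matched in sex in 12 of 12 pairs, but the labels do not say that they came from 1 pup, and 5 of 12 pairs correlated above 0.1 (0.02 to 0.20), so fits with this pairing are alternatives. Alternatives were other probe set choices, normalizations, covariates, weights, filters and leaving out each array.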

Additional observations from a re-analysis of the deposited data

Results flagged for a closer look

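Of the members, 6 had an LP minus NP difference that differed between liver and muscle by limma's test of the difference itself, with adjustment over all genes. Liver minus muscle was 1.63 for Mrpl42, 1.44 for Mrps36, 1.27 for Mrps35, 1.16 for Mrpl55, 0.87 for Mrps7 and 0.81 for Mrpl12 on the log2 scale. For LP+tau minus LP the difference between tissues was -1.48 for Mrps36 and -1.39 for Mrpl42, a comparison that shares the LP arrays with the first. No group held enough arrays for a test of single outlying values.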

How the results depend on the processing

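Under the alternatives and with each array left out in turn, none of the called members reversed its direction. Medians near 0 changed sign: LP+tau against NP in muscle (-0.07 to 0.09), LP+tau against NP+tau in muscle (-0.02 to 0.15) and LP+tau against NP+tau in liver (-0.04 to 0.10). The number of members called for LP against NP in liver was 2, and it was 4 with the mean of all probe sets of a gene, 4 with quantile normalization, 1 with sex as a covariate, 1 with only the groups of the contrast, 21 with array weights, and 0 to 5 with 1 array left out. None was left without NP replicate 1, LP replicate 2 or LP replicate 3, 1 without NP replicate 3 or LP+tau replicate 2, and 5 without LP replicate 1 or NP+tau replicate 2. Over all genes, 21 to 2013 were called for LP against NP in liver with 1 array left out. Mrps35 lost its liver call in 3 of 23 settings (limma adjusted p 0.00207 to 0.0828) and Mrpl20 in 7 (0.00338 to 0.134). For LP+tau against LP in liver, where no member was called, array weights gave 2 and leaving out 1 array 0 to 1, with 0 to 269 called over all genes. In muscle, LP against NP had 0 called, and 2 with cyclic loess, 2 with quantile normalization, 11 with array weights, and 0 to 2 with 1 array left out, the 2 without LP replicate 2 or LP+tau replicate 1. LP+tau against LP in muscle gave 3 with cyclic loess, 3 with quantile normalization, 3 with array weights and 0 to 1 with 1 array left out. Counts over all genes with 1 array left out were 2 to 126 for LP against NP in muscle and 0 to 75 for LP+tau against LP. The medians of the members with 1 array left out ran from -0.49 to -0.23 for LP against NP in muscle, and from 0.12 to 0.25 in liver. For liver minus muscle of LP against NP, 6 members became 10 with quantile normalization, 9 with cyclic loess, 26 with array weights and 3 to 16 with 1 array left out, with 3 without liver NP replicate 1, liver LP replicate 2 or muscle NP replicate 3, and 16 without muscle LP replicate 2. The count over all genes ran from 119 to 762 with 1 array left out. Counts over all genes under the other settings are not given here. For liver minus muscle of LP+tau against LP, 2 members became 1 with each array centred on its median, 1 with sex as a covariate, 0 with liver minus muscle taken per diet and replicate number, 4 with array weights and 0 to 3 with 1 array left out, with 7 to 224 called over all genes in the last case. There Mrpl42 lost its call in 18 of 33 settings (adjusted p 0.00339 to 0.136) and Mrps36 in 4 (0.00388 to 0.0742). The median of the liver interaction was -0.26 with quantile normalization, against -0.12, and -0.06 without NP replicate 1, -0.20 without NP replicate 2 and -0.19 without NP+tau replicate 3. That of liver minus muscle for NP+tau against NP was 0.20, and 0.11 without muscle NP+tau replicate 2. The cause of these changes was not tested. With the replicate number as a block, 2 members were called in liver and 0 in muscle for LP against NP, as without it. A block of diet and replicate number over both tissues gave 9 for liver minus muscle of LP against NP and 2 of LP+tau against LP. With liver minus muscle taken per diet and replicate number, 5 were called for LP against NP, all but Mrpl55. Same-numbered arrays of different diets correlated above 0.1 in 6 of 18 pairs in each tissue, with r up to 0.42 in liver and 0.34 in muscle. The labels do not say whether a replicate number stands for anything shared. Signal over background could not be read from the deposited values.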
